A study of Oncorhynchus mykiss with 18 samples.

Results

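Transcripts of the estrogen receptor genes esr1, esr2a and erb2 were followed across a concentration series of 17α-ethinylestradiol, an estrogen used in contraceptive pills and written EE2 here, in whole rainbow trout alevins. The members were chosen by name: 3 deposited transcripts of esr1, and every deposited transcript that the RefSeq gene table assigns to esr2a (1) or erb2 (5), which makes 9 of 79244 transcripts. The same table gives esr1 8 further transcripts, so levels of the gene were taken from all 11, and the 3 chosen ones are described singly. Solvent controls were held in 0.01% DMSO. The exposed groups had measured EE2 concentrations of 1.13 and 1.57 ng/L, of 6.22 ng/L, and of 16.3 or 55.1 ng/L. Exposure began at hatching, and whole fish were taken at 4 days post-hatch. Each of the 6 groups had 3 libraries, A, B and C, each from a pool of 3 alevins. Separate tanks for the pools are not mentioned in the labels, and a p-value here speaks only of pool-to-pool spread, part of which may be technical.

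Estrogen receptors are nuclear receptors: on binding estrogen they attach to response elements near their target genes and recruit coactivators. Vertebrates have an alpha form, encoded by esr1, and beta forms, which teleost fish carry in more than one copy; esr2a, with erb1 as its synonym in the gene table, and erb2 are such beta genes. In the fish liver the alpha receptor drives the yolk precursor vitellogenin and egg envelope proteins, and its own gene is a known target of estrogen.

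Library totals lay between 12658946 and 32851570 estimated counts, split into 2 sets without overlap. Those of solvent, 6.22 and 55.1 ng/L were at most 17076432. Those of 1.13, 1.57 and 16.3 ng/L were at least 19679734. The deposited tables were of 2 kinds by the gap between a transcript's length and its effective length, the length from which reads can start. In the 6 libraries of solvent and 55.1 ng/L the gap was nearly constant among transcripts of over 2000 bases (SD at most 0.006 bases). In the 12 libraries of the other concentrations it varied from transcript to transcript (SD 348.798 to 434.215 bases). Solvent against 55.1 ng/L therefore lay within one kind, as did comparisons among the 4 lower concentrations. For those 4 against solvent, kind and exposure cannot be told apart. At 1.13, 1.57 and 16.3 ng/L the comparison with solvent also crossed the split in library totals.

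Among the 3 receptor genes, esr1 alone was called, and it was higher than in solvent with each EE2 concentration. Its mean was 2.83 ± 0.592 CPM in solvent libraries and 37.9 ± 4.28 CPM in those of the 55.1 ng/L group (SD, n = 3 libraries each). CPM are reads of a gene scaled by the total of its library after adjustment by a TMM factor, which allows for differences in composition. The beta genes esr2a and erb2 did not pass the edgeR test at any concentration; for both, 0 of 5 comparisons had an unadjusted p under 0.05 and 0 of 5 were called by DESeq2. In a library of pooled whole alevins, fewer or more cells of a type and less or more RNA per cell cannot be told apart.

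Single libraries of solvent held esr1 at 3.16, 2.15 and 3.19 CPM in A, B and C, from 46, 30 and 54 reads. At 1.13 ng/L esr1 stood at 8.11, 5.93 and 6.09 CPM. At 1.57 ng/L the esr1 levels were 11.7, 14.6 and 14.1 CPM. These 3 groups followed each other without overlap, each library of a group above every library of the group before it. At 6.22 ng/L esr1 reached 25.9, 17.3 and 29.8 CPM. With 16.3 ng/L it stood at 45.0, 29.1 and 30.9 CPM. The top group, 55.1 ng/L, held 42.9, 35.4 and 35.5 CPM. The group at 6.22 ng/L lay above all lower groups, with B the lowest of its libraries, and its highest library was just above the lowest at 16.3 ng/L. The groups at 16.3 and 55.1 ng/L overlapped, and the highest esr1 level of all was library A at 16.3 ng/L. How many of all genes separate in the same way between EE2 groups was not counted.

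**Figure D1:**
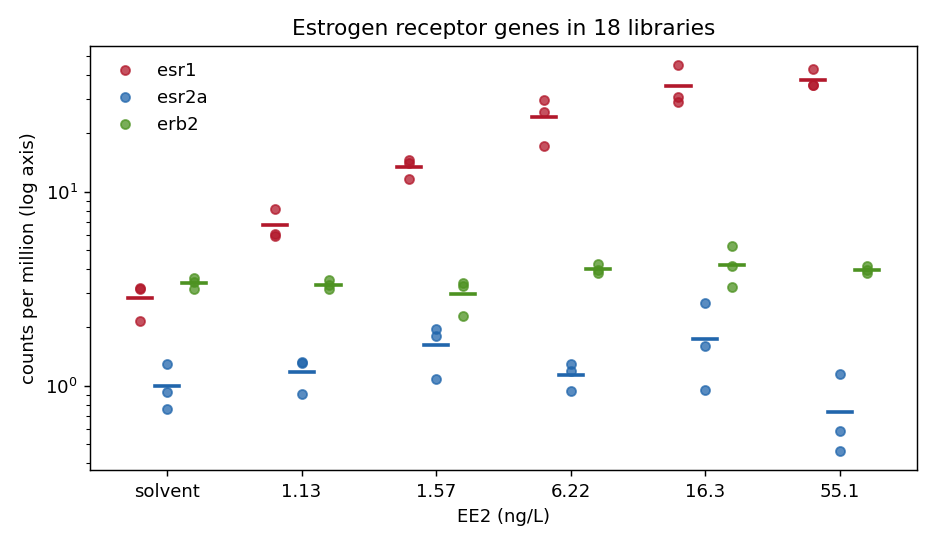
Scaled counts (CPM, log axis) of esr1, esr2a and erb2 in each of 18 libraries, by EE2 group in ng/L; points are libraries and short lines the means of 3. The esr1 points climb from 2.15 to 3.19 CPM in solvent to 35.4 to 42.9 CPM at 55.1 ng/L, while those of erb2 stay between 2.30 and 5.24 CPM and those of esr2a between 0.461 and 2.67 CPM.

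Against solvent, the log2 fold changes of esr1 were 1.23 (95% interval 0.69 to 1.78), 2.24 (1.70 to 2.77), 3.09 (2.55 to 3.62), 3.61 (3.08 to 4.15) and 3.73 (3.19 to 4.27) in order of concentration. Adjusted p-values in edgeR were 0.0099, 0.000877, 2.32e-05, 3.32e-06 and 2.65e-06. Over all 46999 genes tested, the share called was 8.06%, 4.27%, 0.0723%, 0.366% and 0.372% in the same order. In such totals, shares and ranks, genes include the many single transcripts that matched no gene in the gene table. By p-value esr1 ranked 1141 of all genes at 1.13 ng/L, then 16, 11, 9 and 8. The call at 1.13 ng/L thus came where calls were many, and it was lost without solvent replicate B (log2 1.08, adjusted p = 0.0565). CPM of the exposed group and of solvent did not overlap for esr1 at any concentration, which held for 29.8%, 26.2%, 11.3%, 16.3% and 15.5% of all genes.

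Within one kind of table the rise of esr1 was as large. From the 6 solvent and 55.1 ng/L libraries alone the log2 fold change was 3.74 with a standard error of 0.17 (adjusted p = 0.00137 in edgeR, 0.147% of genes called). From the 12 libraries of the 4 lower concentrations alone, esr1 was higher than at 1.13 ng/L by 1.86 at 6.22 ng/L (SE 0.24, adjusted p = 0.00172, 14.1% called). At 16.3 ng/L it was higher than at 1.13 ng/L by 2.38 (SE 0.23, adjusted p = 0.00091, 2.95% called), both on the log2 scale. In the same 12 libraries the steps of esr1 were 1.00 from 1.13 to 1.57 ng/L (adjusted p = 0.391, 0.0232% called) and 0.85 from there to 6.22 ng/L (adjusted p = 0.0441, 8.92% called). The step to 16.3 ng/L was 0.53 (adjusted p = 0.332 in edgeR, 0.129% called). Of these comparisons, those with 6.22 ng/L also crossed the split in library totals.

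Neighbouring concentrations were also compared for esr1, and the steps were not tested against each other. From 1.13 to 1.57 ng/L, a concentration ratio of 1.39, esr1 was 2-fold higher (log2 1.00, 95% interval 0.54 to 1.46), with an adjusted p of 0.203 in edgeR where 0.0447% of genes were called. The ratio of 1.39 rests on the labelled concentrations, and the sample titles number these groups further apart. From 1.57 to 6.22 ng/L, a ratio of 3.96, esr1 was 1.80-fold higher (log2 0.85, 0.40 to 1.30, adjusted p = 0.0198, 10.9% called). From 6.22 to 16.3 ng/L, a ratio of 2.62, it was 1.44-fold higher (log2 0.53, 0.09 to 0.97, adjusted p = 0.273, 0.153% called). From 16.3 to 55.1 ng/L, a ratio of 3.38, the log2 difference was 0.12 (−0.32 to 0.55, adjusted p = 0.895, 0.0447% called). All steps but that from 1.13 to 1.57 ng/L crossed the split in library totals. That from 16.3 to 55.1 ng/L also crossed the kinds of table, so kind and concentration cannot be told apart there. Of these 4 steps, 1.57 to 6.22 ng/L alone passed the edgeR test. It was lost when 1.57 replicate A (adjusted p = 0.0777), 6.22 replicate A (0.0508) or 6.22 replicate C (0.103) was left out. In edgeR the unadjusted p was 0.000349 (rank 79 of all genes) from 1.13 to 1.57 ng/L and 0.00115 (rank 2726) from 1.57 to 6.22 ng/L. The larger and better ranked step thus failed where few genes were called, and the other passed where many were. The step from 1.13 to 1.57 ng/L passed in DESeq2 (log2 1.00, adjusted p = 0.00168).

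Taking the mean rise at 55.1 ng/L as the whole, 11% of it was present at 1.13 ng/L, 30.2% at 1.57, 61.1% at 6.22 and 91.6% at 16.3 ng/L. The groups from 1.13 to 16.3 ng/L were of another kind of table than solvent and 55.1 ng/L, which these percentages do not allow for. Over the whole series the slope of esr1 was 0.59 on the log2 scale per unit of log2(concentration + 1) (SE 0.075, adjusted p = 0.000443 in edgeR, 1.19% of genes called). With the kind of table as a further term, chosen after seeing the data, it was 0.65 (adjusted p = 1.18e-06).

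The first beta gene, esr2a, was counted from its 1 deposited transcript with 7 to 64 reads a library, all whole numbers within 0.001. In solvent it stood at 0.755, 0.932 and 1.30 CPM in A, B and C. At 1.13 ng/L esr2a levels were 1.32, 0.912 and 1.31 CPM, and at 1.57 ng/L 1.09, 1.97 and 1.81 CPM. Both groups overlapped solvent. At 6.22 ng/L the levels were 1.19, 0.941 and 1.30 CPM. The 16.3 ng/L libraries held 2.67, 1.61 and 0.949 CPM, and those of the top concentration 0.584, 0.461 and 1.15 CPM. The lowest esr2a libraries of the series were A and B at 55.1 ng/L, from 8 and 7 reads, while C lay inside the solvent range.

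Log2 fold changes of esr2a against solvent were 0.24 (95% interval −0.63 to 1.12), 0.70 (−0.18 to 1.57), 0.19 (−0.70 to 1.08), 0.80 (−0.08 to 1.68) and −0.45 (−1.36 to 0.46). Adjusted p-values in edgeR ran from 0.371 to 0.969. A change of esr2a of a size inside these intervals is not excluded by these data. They lie below those of esr1 at every concentration except 1.13 ng/L, where both intervals overlap. Between 16.3 and 55.1 ng/L esr2a was 0.42-fold (log2 −1.25, −2.15 to −0.35, unadjusted p = 0.00987), with an adjusted p of 0.291 in edgeR. This comparison crossed the kinds of table and the split in library totals. The slope of esr2a over the series was −0.04 (SE 0.079, adjusted p = 0.876).

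The other beta gene, erb2, was counted from 44 to 116 reads a library. In solvent erb2 was at 3.43, 3.15 and 3.61 CPM. The 1.13 ng/L libraries held 3.16, 3.29 and 3.49 CPM of it, those of 1.57 ng/L 2.30, 3.38 and 3.27 CPM. Up to this concentration no group stood clear of solvent. At 6.22 ng/L erb2 was at 4.23, 3.95 and 3.82 CPM. At 16.3 ng/L the libraries gave 5.24, 4.13 and 3.23 CPM, and the highest concentration gave 3.94, 3.82 and 4.12 CPM. The libraries of 6.22 and 55.1 ng/L all lay above solvent, as they do in one direction or the other for 11.3% and 15.5% of all genes, and the other groups overlapped it.

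For erb2 the log2 fold changes were −0.04 (95% interval −0.41 to 0.33), −0.19 (−0.56 to 0.18), 0.24 (−0.14 to 0.61), 0.30 (−0.07 to 0.67) and 0.22 (−0.15 to 0.60), with adjusted p-values of 0.512 to 0.938 in edgeR. At no concentration did the interval of erb2 reach that of esr1. The step from 1.57 to 6.22 ng/L was 0.42 (0.05 to 0.79, adjusted p = 0.138), and the slope over the series 0.07 (SE 0.027, adjusted p = 0.219), both short of the threshold. Within the solvent and 55.1 ng/L tables alone, neither erb2 (log2 0.22, adjusted p = 0.699) nor esr2a (−0.45, adjusted p = 0.823) passed.

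**Figure D2:**
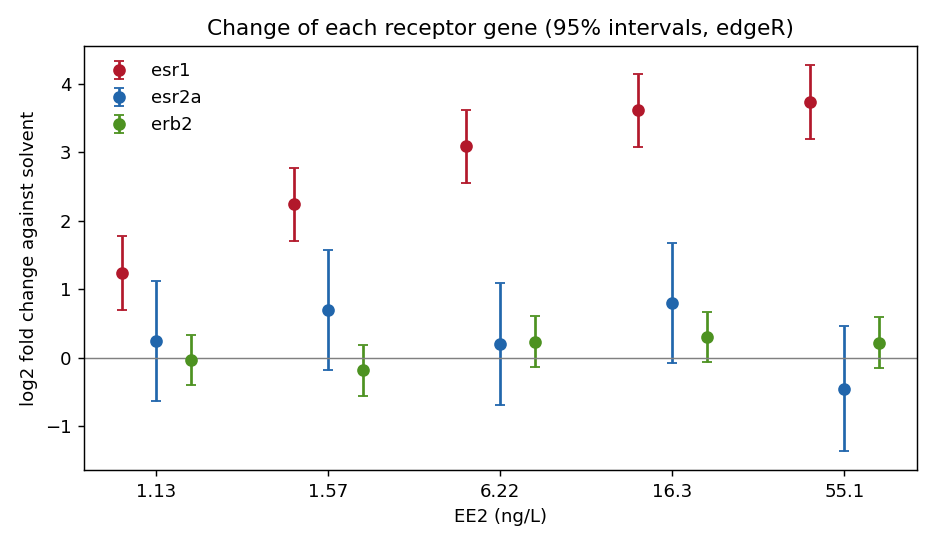
Log2 fold change against solvent of esr1, esr2a and erb2 at each EE2 concentration in ng/L, with 95% intervals from edgeR over 18 libraries. The esr1 values run from 1.23 to 3.73 with every interval above 0, and all intervals of esr2a and erb2 include 0.

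Levels of different genes were compared in TPM, which is scaled to length. In solvent erb2 was highest at 1.71 ± 0.186 TPM, esr1 stood at 1.32 ± 0.218 TPM and esr2a at 0.650 ± 0.135 TPM (SD, n = 3). At 55.1 ng/L esr1 was at 15.4 ± 1.35 TPM, erb2 at 1.70 ± 0.131 TPM and esr2a at 0.415 ± 0.210 TPM. At the lowest concentration esr1 was already first, with 3.43 ± 0.583 TPM against 1.72 ± 0.135 TPM of erb2. In every solvent library erb2 exceeded esr1, and in each of the 15 exposed libraries esr1 exceeded erb2, while esr2a was lowest in all 18.

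Per library, the ratio of esr1 to erb2 in TPM was 0.779, 0.678 and 0.873 in solvent. It was 2.59, 1.73 and 1.71 at 1.13 ng/L, then 4.89, 4.27 and 4.24 with 1.57 ng/L. At the top concentration it was 10.6, 8.87 and 7.81. The log2 ratio was 2.75 higher in the 15 exposed than in the 3 solvent libraries (means 2.38 and −0.37). Its p of 0.0012 was the smallest that the exact two-sided permutation test can give (adjusted p = 0.011 over 18 tests of ratios). The log2 ratio of esr1 to esr2a was 2.67 higher (3.69 against 1.02, p = 0.0012, adjusted p = 0.011 in the same exact test). In these pooled tests 12 of the 15 exposed libraries were of the other kind of table than solvent, so kind and exposure partly coincide. Between the beta genes the log2 ratio of esr2a to erb2 differed by 0.08 (−1.31 against −1.39, exact permutation p = 0.83), with single libraries between −2.59 and −0.48. This pooled value holds groups on either side of solvent: the difference was 0.75 at 1.57 ng/L (exact permutation p = 0.1) and −0.72 at 55.1 ng/L (exact permutation p = 0.2). At one concentration the exact permutation test of 3 libraries against 3 cannot give less than p = 0.1, the value reached by both esr1 ratios at all 5 and by esr2a to erb2 at 1.57 ng/L. When any solvent library was left out, the adjusted p of both esr1 ratios rose to 0.0662 or 0.132, with only 2 solvent libraries remaining. The exact permutation test then cannot give less than p = 0.0074. Where both esr1 ratios alone reach that floor, it adjusts to 0.0662 over the 18 tests. The threshold was thus out of reach for them, and the lost call cannot speak on the ratios.

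**Figure D3:**
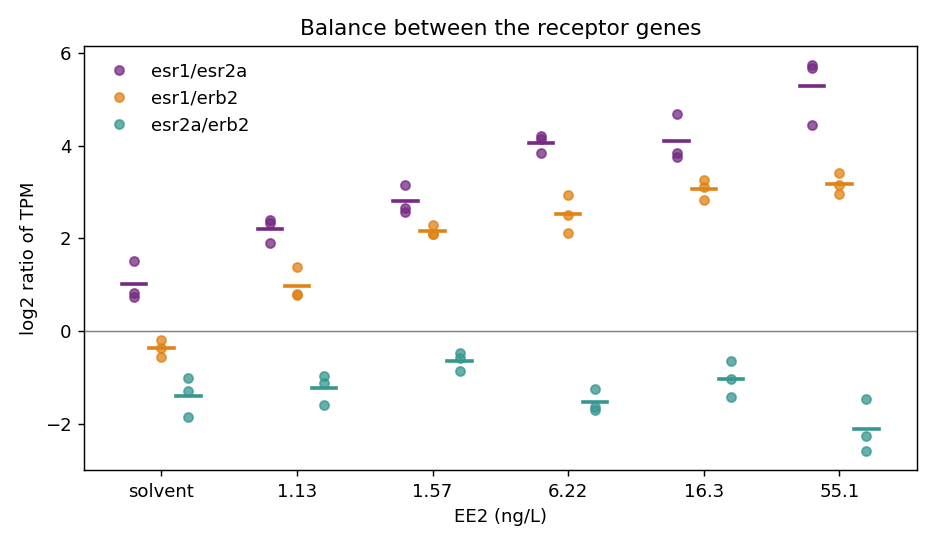
Log2 ratio of TPM between the receptor genes in each of 18 libraries, by EE2 group in ng/L; points are libraries and short lines the means of 3. The esr1/erb2 points pass from below 0 in solvent to between 2.97 and 3.41 at 55.1 ng/L, and esr2a/erb2 stays below 0 throughout.

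The esr1 reads were divided unevenly over its 11 transcripts. Over all libraries XM_021598364.1 (3262 bases) held 48.6% of them, XM_021598362.1 (3310 bases) 27.4% and XM_021598363.1 (3315 bases) 12.9%, and 3 of the other 8 held under 1 read in every library. The curated RefSeq transcript of the gene, NM_001124349.1 (2040 bases), held 1.62%. These transcripts are assigned to the same gene, and kallisto assigns a read that matches several of them by estimation. How much sequence they share was not measured.

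The split differed between libraries of one group. XM_021598364.1 held 65.6% of esr1 reads in 6.22 ng/L library A and 82.3% in C, but 2.51% in B (95% Wilson interval 1.24 to 5.16%, counting error only). In that library B, XM_021598362.1 held 54.1% and XM_021598363.1 39.3%. At 1.13 ng/L XM_021598362.1 held 84.6% of esr1 reads in library B and 0 of 239 and 0 of 176 in A and C, while XM_021598363.1 was at 0 in all 3 libraries. At 16.3 ng/L the libraries were more alike, with XM_021598364.1 at 39.2%, 47.6% and 39.0%. At 55.1 ng/L XM_021598363.1 took 17.4% and 17.1% in A and B and 0% in C.

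No change in the split with exposure passed a test. At one concentration the exact permutation test of 3 libraries against 3 cannot give less than p = 0.1, so it could not pass. The test of all exposed against solvent libraries could, with 30 to 54 esr1 reads in each solvent library. The mean share of XM_021598362.1 was 29.0% in exposed and 12.1% in solvent libraries (difference 16.8 percentage points, exact two-sided permutation p = 0.212, adjusted p = 1 over 18 tests). For XM_021598363.1 the difference was −2.07 points (exact permutation p = 0.846) and for XM_021598364.1 −3.61 points (exact permutation p = 0.789). These differences moved most when a solvent library was left out. That of XM_021598362.1 was 28.95 points without solvent A and 10.8 without B or without C. That of XM_021598363.1 was −8.63 points without A or without B and 11.1 without C. For XM_021598364.1 it was −11.2 points without A, −0.11 without B and 0.48 without C.

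**Figure D4:**
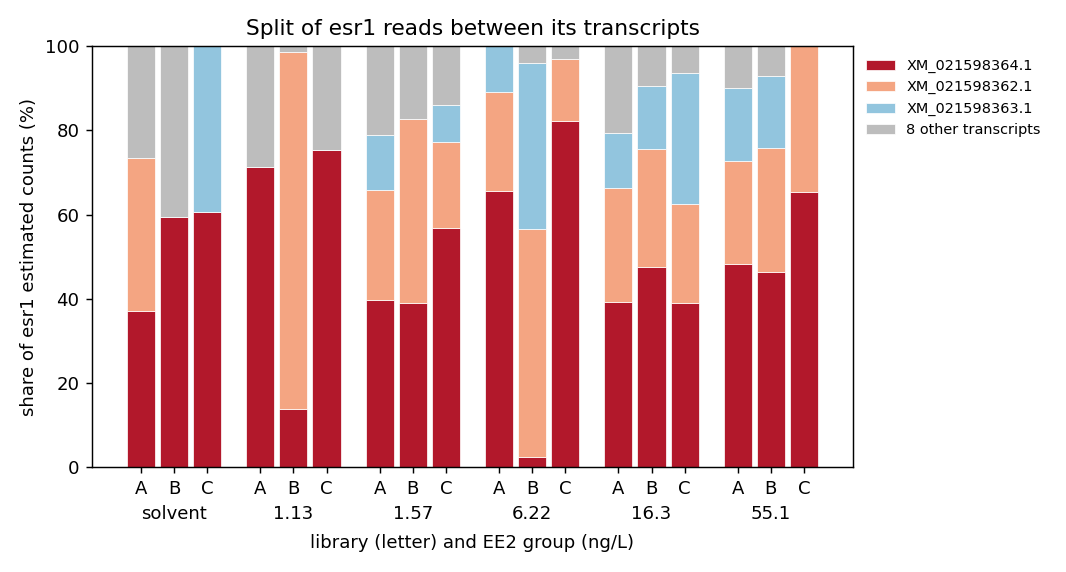
Share of esr1 estimated counts (%) assigned to 3 named transcripts and to the 8 others together, 1 bar for each of 18 libraries, by EE2 group in ng/L. Bars of one group differ: XM_021598364.1 is 2.51% of 6.22 ng/L library B and 82.3% of library C.

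Fitted singly, none of the 3 named esr1 transcripts was called in edgeR at any concentration, where 3.76%, 1.67%, 0.0669%, 0.234% and 0.207% of 59811 transcripts were. At an unadjusted p under 0.05 stood 0, 1, 2, 2 and 2 of them in order of concentration. XM_021598364.1 came nearest, with a log2 fold change of 3.75 and a standard error of 0.95 at 55.1 ng/L (unadjusted p = 0.00153, adjusted p = 0.185). The sum over all transcripts of the gene had a standard error of 0.25 in the same comparison. Without 6.22 ng/L library B, XM_021598364.1 was called at 6.22 (log2 3.80, adjusted p = 0.0213), 16.3 (3.29, 0.0269) and 55.1 ng/L (3.75, 0.0121). The authors' deposited tables list the 3 transcripts of esr1 and none of esr2a or erb2. For XM_021598364.1 the authors' deposited log2 fold change at 55.1 ng/L is 3.77 with a standard error of 0.882. The adjusted p of XM_021598364.1 in the authors' deposited tables is 0.026 with 6.22 ng/L, 0.0103 with 16.3 and 0.00179 for the top group, so their analysis called it at these 3 concentrations, while it gives the other 2 named transcripts adjusted p-values of 0.109 to 0.845. Summing only the 3 named transcripts gave esr1 a log2 fold change of 3.95 at 55.1 ng/L and 1.23 at 1.13 ng/L (adjusted p = 3.2e-06 and 0.0155 in edgeR).

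Reads of erb2 lay mostly on XM_021573115.1 (78.6%, at least 1 read in all 18 libraries). The curated NM_001124570.1 held 8.13%, in 11 libraries, and the non-coding XR_002469643.1 10.4%, in 5 libraries. In 1.57 ng/L library C, XR_002469643.1 took 53.6% and XM_021573115.1 20.04%, whereas in the same group's B XM_021573115.1 held 96.3%. Neither XM_021573115.1 nor the other 2 erb2 transcripts tested singly were called in edgeR at any concentration, where 0.0669% to 3.76% of all transcripts were. Before adjustment, NM_001124570.1 at 16.3 ng/L alone was under the threshold in edgeR (log2 fold change −5.745). It held 0 reads in each library there, while its solvent reads, 13.5 in all, came from 1 library.

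Of the genes around the receptors in the gene table, chosen after seeing the data, 3 on each side were read. Next to esr1, armt1, which the table lists directly after it, was at 35.0 CPM in solvent and 30.2 CPM at 55.1 ng/L (log2 −0.21, adjusted p = 0.464), and syne1a on the other side was not among the genes tested. Of 13 tested neighbours of the 3 receptor genes, 5 of them beside esr1, 0 were called at 55.1 ng/L in edgeR or DESeq2, with 4 at an unadjusted p under 0.05 (0.372% of all genes called by edgeR). At 1.13 ng/L, where 8.06% of all genes were called, 3 of the 13 were: the scaffold gene akap12b beside esr1 was higher (0.46, adjusted p = 0.00471), and atp5mpl near esr2a (−0.50, adjusted p = 0.0144) and LOC110497830 near erb2 (−0.45, adjusted p = 0.0289) were lower. At 1.57 ng/L akap12b alone was called (0.35, adjusted p = 0.0302, 4.27% of all genes called).

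Over the 18 libraries, the log2 CPM of esr1 was most like that of the egg envelope gene zp2.3 (Pearson r = 0.98, Spearman rho = 0.973) among 37911 genes with a mean of at least 1 CPM. LOC100135907 (r = 0.98), XM_021599798.1 (0.97), LOC100135906 (0.96) and XM_021599796.1 (0.96) came next. Among genes with a symbol, zp2.3 was followed by the vitellogenin vtg3 (0.94) and the O-glycosylation enzyme galnt14 (0.92). Then came the purine nucleoside phosphorylase pnp4b (0.92) and fd6d (0.92). Over the 3 solvent libraries together, zp2.3, vtg3, LOC100135907, XM_021599798.1, LOC100135906 and XM_021599796.1 held 0 to 2 reads each. They met the mean of 1 CPM only through exposed groups where they were high, so their likeness to esr1 rests partly on that filter. The libraries share the 6 groups, so r mostly sets group levels against each other, and the kinds of table and library totals are shared too. Within the 12 libraries of the lower concentrations r was 0.96 for zp2.3 and highest for fd6d, at 0.98.

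Their ranges differed from that of esr1. The level of zp2.3 went from 0.0436 CPM in solvent, from 2 reads in all, through 1.40 at 1.13 ng/L and 42.6 at 1.57 ng/L to 687 CPM at 55.1 ng/L. For fd6d the group means were 28.1 CPM in solvent, 24.8 with 1.13 ng/L, 40.0 with 1.57 ng/L, then 89.2 CPM in the top group.

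The genes most like esr2a over the same libraries were LOC110503617 (r = 0.81, rho = 0.68), the peroxisomal oxidase acox3 (0.80, 0.754) and LOC110510101 (0.79, 0.798). For erb2 they were LOC110508311 (r = 0.83, rho = 0.688), XM_021625608.1 (0.81, 0.725) and LOC110535968 (0.79, 0.635). These r are the highest among 37911 genes, and how high r would reach for unrelated genes was not tested. None of these 6 was called at 55.1 ng/L, nor were esr2a and erb2, which they were picked to resemble. Between the receptors, r was 0.52 for esr1 with erb2, 0.07 for esr1 with esr2a and 0.22 for esr2a with erb2.

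The other listed receptors, of steroids or related to such receptors, did not pass the test at any concentration. Listed symbols of the androgen and progesterone receptors matched no counted gene, so those receptors were not tested. All 5 listed genes that the table names were measured, and 0 of 5 were called by edgeR at each of the 5 concentrations. Over all genes 8.06%, 4.27%, 0.0723%, 0.366% and 0.372% were called in order of concentration. At an unadjusted p under 0.05 there were 1, 2, 0, 1 and 0 in order of concentration, and DESeq2 called 1, with 1.57 ng/L. LOC100136786, a glucocorticoid receptor by its synonym nr3c1, was at 13.2 CPM in solvent and 15.9 at 55.1 ng/L (log2 0.27, adjusted p = 0.507). A further gene with the symbol nr3c1 was at 3.79 and 2.94 CPM (−0.36, adjusted p = 0.58). The estrogen-related receptor esrrd was at 3.25 and 3.47 CPM (0.09, adjusted p = 0.928). The median of the list at 55.1 ng/L was 0.27 against −0.01 over all genes.

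At 55.1 ng/L 0.372% of all genes were called, and at 16.3 ng/L 0.366%. Among chaperones and coregulators of nuclear receptors, 1 of 8 measured genes rose at 55.1 ng/L and none fell, with a median of 0.01. It was grp94 (log2 0.83, SE 0.12, adjusted p = 0.0041), which also rose at 16.3 ng/L (0.86, adjusted p = 0.0033). Its protein is a chaperone of the endoplasmic reticulum, matched here by its synonym HSP90B1A, and not the cytosolic HSP90 that holds steroid receptors. The list was set to leave hsp90b1 out, and grp94 entered only through that synonym. No other gene of this list was called at 55.1 ng/L. The gene for the cytosolic HSP90, hsp90ab1, was at 1320 ± 148 CPM in solvent and 1380 ± 127 at 55.1 ng/L (log2 0.07, adjusted p = 0.906).

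Of 16 listed genes for estrogen synthesis and inactivation 14 were measured, and 1 rose at 55.1 ng/L (median −0.05, 0.372% of all genes called). This was comtd1 (log2 0.76, SE 0.12, adjusted p = 0.00831), which also rose at 16.3 ng/L (0.92, adjusted p = 0.00152) and matched the list by the shape of its symbol. The catechol estrogen methyltransferase gene comta was at 15.5 CPM in solvent and 16.2 CPM at 55.1 ng/L (0.07, adjusted p = 0.914). Calls at the lowest concentrations were named after their values were seen, and stand at 3 of 14 and 2 of 14 genes where 8.06% and 4.27% of all genes were called. At 1.13 ng/L the cholesterol carrier star (−1.19, adjusted p = 0.0327) and hsd17b8 (−0.42, adjusted p = 0.0389) fell and hsd17b12a rose (0.71, adjusted p = 0.0267). At 1.57 ng/L hsd17b12a (0.77, adjusted p = 0.0309) and the estrogen hydroxylase cyp1a3 (1.27, adjusted p = 0.0117) rose.

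Of egg proteins under estrogen control 3 of 4 listed genes were measured. At 55.1 ng/L, where 0.372% of all genes were called, zp2.3 and vtg3 rose, and zp3d.1 had a log2 fold change of 0.09 (adjusted p = 0.967 in edgeR). In the gonadotropin axis 4 of 11 listed genes had enough reads for the test. At any concentration 0 of them were called by edgeR or DESeq2, while edgeR called 0.0723% to 8.06% of all genes. At 1.57 and at 6.22 ng/L 1 of them had an unadjusted p under 0.05 in edgeR. The kisspeptin receptor kiss1ra, the best covered, was at 2.63 CPM in solvent and 2.55 at 55.1 ng/L (log2 −0.05, adjusted p = 0.988).

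Markers of tissues that could carry receptors were read beside esr1. Of all genes 0.372% were called at 55.1 ng/L and 8.06% at 1.13 ng/L in edgeR. The summed level of 8 liver markers was 1350 to 1760 CPM in solvent, 1940 to 2290 at 1.13 ng/L and 1150 to 1230 at 55.1 ng/L. Most of that sum came from apoa2 (868 CPM in solvent, 619 at 55.1 ng/L) and tfa (470 and 390 CPM), neither of them called at 55.1 ng/L. Of the 8 markers 4 were above 0 at 55.1 ng/L, with a median log2 fold change of 0.07 against −0.01 over all genes. Of them rbp4, the retinol carrier, rose (log2 1.04, adjusted p = 0.0236) and ahsg2, a fetuin, fell at 55.1 ng/L (−1.57, adjusted p = 0.0225). Muscle markers (5 genes) summed to 5650 to 7070 CPM in solvent and 8570 to 9250 at 55.1 ng/L, with mylpfb called (0.64, adjusted p = 0.049). All 5 were above 0 at 55.1 ng/L, with a median log2 fold change of 0.556 against −0.01 over all genes. Most of the muscle sum came from ckmb (4290 CPM in solvent, 6300 at 55.1 ng/L) and pvalb2 (1710 and 2290 CPM), neither of them called there. Blood cell markers (7 of 9 measured) summed to 262 to 338 and 181 to 304 CPM, and pituitary markers (5 genes) to 4.79 to 5.02 and 4.54 to 6.94 CPM. Of these blood and pituitary genes 0 were called at 55.1 ng/L by edgeR or DESeq2, with 2 blood and 0 pituitary genes at an unadjusted p under 0.05. Of 10 gonad markers 4 were measured (84.7 to 90.9 and 77.9 to 88.7 CPM), with 0 called at 55.1 ng/L by either tool and 0 at an unadjusted p under 0.05. Most of that sum came from LOC100135781 (51.2 CPM in solvent, 48.8 at 55.1 ng/L) and piwil1 (33.8 and 30.7 CPM). The germ cell genes ddx4, dazl and nanos2, and also gsdf, dmrt1 and foxl2l, had too few reads for the test, so the sum says little of gonad content. At 1.13 ng/L, named after their values were seen, the liver marker tfa, a transferrin, rose (0.89, adjusted p = 0.0137) and LOC100135781, with sox9 names as synonyms, fell (−0.33, adjusted p = 0.0393). The part of liver, muscle or blood content in the level of esr1 was not tested.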

How the data were processed

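The members and gene lists were chosen with earlier results of these data known. Upstream, the submitters' processing notes name Trimmomatic 0.38 for trimming, kallisto for quantification and DESeq2; the genome build and the other versions were not given in the sources used here. Per the file headers, each deposited table lists 79244 RefSeq transcripts with estimated counts, TPM, length and effective length. The authors' deposited comparison tables (28438 transcripts) give, per their file headers, a mean of normalised counts (a signal), a log2 fold change with its error and an adjusted p-value.

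Accessions without version were looked up in the RefSeq table of USDA_OmykA_1.1, used for names and gene order only; 42410 (53.5%) matched. Near-identical copies can trade reads, and receptor copies without these symbols were not analysed here. Estimated counts were summed by gene (unmatched transcripts kept singly), rounded, and tested with edgeR 4.0.16 (filterByExpr, TMM, quasi-likelihood F test) in R 4.3.3. One model held the 18 libraries and left 12 residual degrees of freedom. P-values were adjusted by Benjamini and Hochberg over all 46999 genes, threshold 0.05; the procedure was tested on simulated data. CPM carry TMM factors. Ratios used TPM plus 0.01. Likeness used log2 CPM with a prior count of 2. Alternatives included DESeq2 1.42.0 and limma 3.58.1 on log2(TPM + 0.1). The kinds of table found in the files (6 and 12 libraries) replaced the kinds assumed at planning.

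Named were the 3 receptor genes and their transcripts; the genes most like them; and of each list up to 4 members called at 55.1 ng/L, or else up to 3 with the highest mean CPM. Symbols matched by shape are named as such.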

Additional observations from a re-analysis of the deposited data

How the results depend on the processing

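Of 1027 repeats of the main results under other settings, 1008 kept their side of the threshold, and no called value changed direction. Many of these repeats left out a library of a group not compared, or concerned values far from the threshold, and could hardly change side. Values that were not called could change sign, such as the difference in the share of XM_021598363.1 (−8.63 to 11.1 percentage points with 1 library left out). Taking the best-covered transcript in place of the gene sum ended the call of esr1 at 1.13 (log2 1.34), 1.57 (2.05), 6.22 (3.23), 16.3 (3.29) and 55.1 ng/L (3.75). DESeq2 added the call of esr1 from 1.13 to 1.57 ng/L (1.00). With 1 library left out, esr1 at 1.13 ng/L ranged from 1.08 to 1.32 and its step from 1.57 to 6.22 ng/L from 0.68 to 1.05. The number of named esr1 transcripts called at 6.22, at 16.3 and at 55.1 ng/L ranged from 0 to 1. The log2 ratio of esr1 to esr2a (exposed minus solvent) ranged from 2.53 to 2.91 and that of esr1 to erb2 from 2.66 to 2.87. For both esr1 ratios without a solvent library, the threshold was out of reach of the exact permutation test. The cause of the other changes was not tested.

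The share of genes called depended on the setting. At 1.13 ng/L it was 8.06% in the main test and 2.83 to 14.5% in 29 alternatives. The main share and its range were 4.27% (0.67 to 10.6%) at 1.57 ng/L and 0.0723% (0.0365 to 0.66%) at 6.22 ng/L. They were 0.366% (0.199 to 2.35%) at 16.3 ng/L and 0.372% (0.147 to 1.84%) at 55.1 ng/L. The highest of each came from the DESeq2 Wald test.

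The letters A, B and C did not pair the libraries: of 45 same-letter pairs across groups none correlated over 0.1 (−0.042 to 0.045), and 7 of 18 libraries correlated best with their own letter. With the replicate block esr1 changed by 1.24 at 1.13 ng/L and 3.74 at 55.1 ng/L, and the block changed no call of the 3 genes.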
